A study of Mus musculus with 6 samples.

Results

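The E2F transcription factors and the pocket proteins that bind them are described here in D10 T cells, a cloned mouse CD4+ helper T cell line, cultured for 24 h at 26°C (cold-acclimated, 3 replicates) or for 24 h at 37°C (non-acclimated, 3 replicates). The 10 genes are E2f1 to E2f8, Rb1 and Rbl1, and they were found by gene symbol among the 41079 genes listed. All 10 had a mean of at least 1 TPM (a read count divided by gene length and scaled to the same total in every library) and were among the 12227 genes tested. Poly(A)+ RNA of the 6 samples was sequenced as strand-specific libraries. As the study describes them, both groups share the genotype of 1 cloned line, grown in culture, and differ in the temperature of the last 24 h. Cd4 and some other marker genes differed between replicate numbers, as given below. The labels call the RNA extraction batches biological replicates and name old and new batches, but do not say which library is which. The study's methods call the replicates independently prepared, and how the preparations differed is not stated in the sources used here.

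E2F factors bind DNA at the promoters of genes for DNA synthesis and cell division, most of them as partners of a DP protein. E2f1, E2f2 and E2f3 are the activators: in resting cells the pocket protein Rb, encoded by Rb1, binds and silences them, and cyclin-dependent kinases release them by phosphorylating Rb as a T cell enters the cell cycle. E2f4 and E2f5 act mostly as repressors together with the pocket proteins p107, encoded by Rbl1, and p130, encoded by Rbl2. E2f6 represses without a pocket protein, through Polycomb-type complexes. E2f7 and E2f8 are atypical repressors that need neither a DP partner nor a pocket protein and are themselves E2F target genes. Several E2F genes carry E2F sites in their own promoters.

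Promoter stretches are shown because several members are known E2F targets. RefSeq promoter windows, from 250 bases before to 50 after an annotated start, were matched for 7 of the 10 genes (9 windows, from a table of GRCm38.p6, each located by an exact match in GRCm39). E2f4, E2f5 and Rb1 had no entry. TTTCGCGC, TTTGGCGC and TTTCCCGC were searched as E2F-like motifs and TTTGAA as a motif like the cell cycle homology region (CHR), on both strands. The search found no overlap between matches. The stretches below run 5′ to 3′ on the strand of the gene, with matches in capitals, and a match on the opposite strand reads as its reverse complement. E2f6 and E2f1 are shown as members with no match.
Rbl1, chr2:157046455-157046501, minus strand: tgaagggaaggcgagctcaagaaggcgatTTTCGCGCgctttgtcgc
E2f2, chr4:135899613-135899634, plus strand: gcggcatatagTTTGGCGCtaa
E2f3, chr13:30170047-30170086, minus strand: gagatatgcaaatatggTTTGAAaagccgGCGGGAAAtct
E2f7, chr10:110581073-110581131, plus strand: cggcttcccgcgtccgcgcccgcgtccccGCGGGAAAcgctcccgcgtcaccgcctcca
E2f8, chr7:48531345-48531393, minus strand: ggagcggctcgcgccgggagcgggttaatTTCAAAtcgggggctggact
E2f6, chr12:16860906-16860965, plus strand: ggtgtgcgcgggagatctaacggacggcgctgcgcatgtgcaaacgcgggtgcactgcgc
E2f1, chr2:154411347-154411406, minus strand: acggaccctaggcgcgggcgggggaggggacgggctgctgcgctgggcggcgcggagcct

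An E2F-like motif lay in the windows of 4 of the 7 genes. Positions count along the gene from the start base as 0, at the first base of the printed match. In Rbl1, TTTCGCGC began at -18. In E2f2, TTTGGCGC began at +39, past the start. TTTCCCGC lay on the opposite strand at -11 in E2f3 and at -198 in E2f7. E2f3 had TTTGAA at -23 beside its E2F-like motif, E2f8 had TTTGAA at -20 on the opposite strand, and a downstream start of E2f2 had it at -31. The windows of E2f1 and E2f6 held none of these letters, and the E2f1 window lay 466 bases inside the edge of the gene as deposited. By gene, 2.12% of the 27025 genes with a window held 1 or more of the 3 E2F-like motifs. By window, 4 of the 9 member windows did, beside 1.84% of all 32851 RefSeq windows, and 17.9% of all windows held TTTGAA. GC content of the member windows ranged from 54.7% to 78.7%, beside a median of 52.7% over all windows. A match is a description of the letters and not a measured binding site.

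The non-acclimated libraries held 16899628 to 31290854 reads recovered from the TPM steps, and the cold-acclimated libraries 19605883 to 25169484. Replicate 3 stood apart. Its cold-acclimated library correlated best with the non-acclimated library of the same number (Pearson's r = 0.945 across genes), and the interquartile range of its log2 fold changes was 0.897, beside 1.32 and 1.40 in replicates 1 and 2. The CD4 co-receptor gene Cd4 was at 310 and 328 TPM in replicate 3 but at 0.0351 to 1.30 TPM in the other 4 libraries, which goes against the label of a CD4+ cell. The T cell marker Cd5 was at 0 TPM in all libraries but cold-acclimated replicate 3 (0.0454 TPM). Cd28 was at 7.35 and 5.61 TPM in replicate 2, beside 27.9 to 54.5 TPM in the other 4 libraries. Cd3d was at 64.3 and 78.6 TPM there, beside 240 to 332 TPM. Cd3e was at 476 to 874 TPM and Gata3 at 387 to 752 TPM in the 6 libraries. Cd3g was at 954 to 1847 TPM, Lck at 223 to 732 TPM and Zap70 at 126 to 521 TPM. B cell markers summed to at most 1.11 TPM, with Ms4a1 listed at 0 throughout. The 8 macrophage and monocyte markers summed to 3.46 to 16.7 TPM at 37°C and 2.69 to 21.4 TPM at 26°C, with Csf1r at no more than 0.0253 TPM and Lyz2 highest in replicate 3, at 11.6 and 14.8 TPM. Of the cold-inducible RNA-binding protein genes, Cirbp gave a log2 fold change of 1.59 ± 0.49 (SE, limma adjusted p = 0.055) and was called upregulated with the replicate number as a block (adjusted p = 0.012), with median of ratios scaling (1.99, 0.036), with voom (2.06, 0.031) and without replicate 3 (1.14, 0.013). Rbm3 gave 0.49 ± 0.55 (adjusted p = 0.56). Since replicate 3 moved less in most members, each member's value is also given without it. It was left out after its smaller changes were seen, so larger changes without replicate 3 follow from that choice. They are no separate support, and no fit left out both libraries of replicate 1 or of replicate 2.

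After cold acclimation the 3 activator E2F genes and Rb1 were downregulated, while E2f4 and E2f6 were higher in every replicate, as 18.2% of all tested genes were, without passing the test. A call here needs an adjusted p (limma on log2(TPM + 1), Benjamini-Hochberg over all tested genes) below 0.05 together with a change of 1 or more on the log2 scale. By this rule 4 of the 10 genes were called downregulated, beside 16.0% of all tested genes. Lower values at 26°C in all 3 replicates were seen in 6 of the 10, beside 47.9% of all. No member was called upregulated in limma or voom (a variant of limma for read counts) on recovered reads, beside 2.63% of all tested genes in limma, and no member with a positive change had an unadjusted p under 0.05, whereas 6 members with a negative change did. With the replicate number as a block, E2f8 and Rbl1 were also called, which made 6 of 10 beside 21.9% of all genes. Without replicate 3, E2f7 joined these 6, beside 25.3% of all genes. Leaving out single libraries also moved the count: it was 7 without cold-acclimated replicate 3 (beside 22.3%), 2 with the non-acclimated library of that number left out (14.9%), and 0 without replicate 1 or 2 of either group (4.31% and 2.82% for the non-acclimated, 3.68% and 4.91% for the cold-acclimated replicates). These 4 counts of 0 came with a fall of the calls over all genes, to the percentages given. The median log2 fold change of the 10 genes was -1.12 and that of all tested genes -0.34. The study's methods name median of ratios normalization, there for read counts, whereas the main fit here kept the TPM scale. Scaling the libraries by a median of ratios moved the median of all genes to 0.03, kept every member's direction and left E2f1 as the call, beside 8.6% of all genes. With both the block and this scaling 3 members were called (beside 12.4%), and voom called 2 (beside 9.57%). Without the filter on low values none was called in limma, beside 5.29%.

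**Figure D1:**
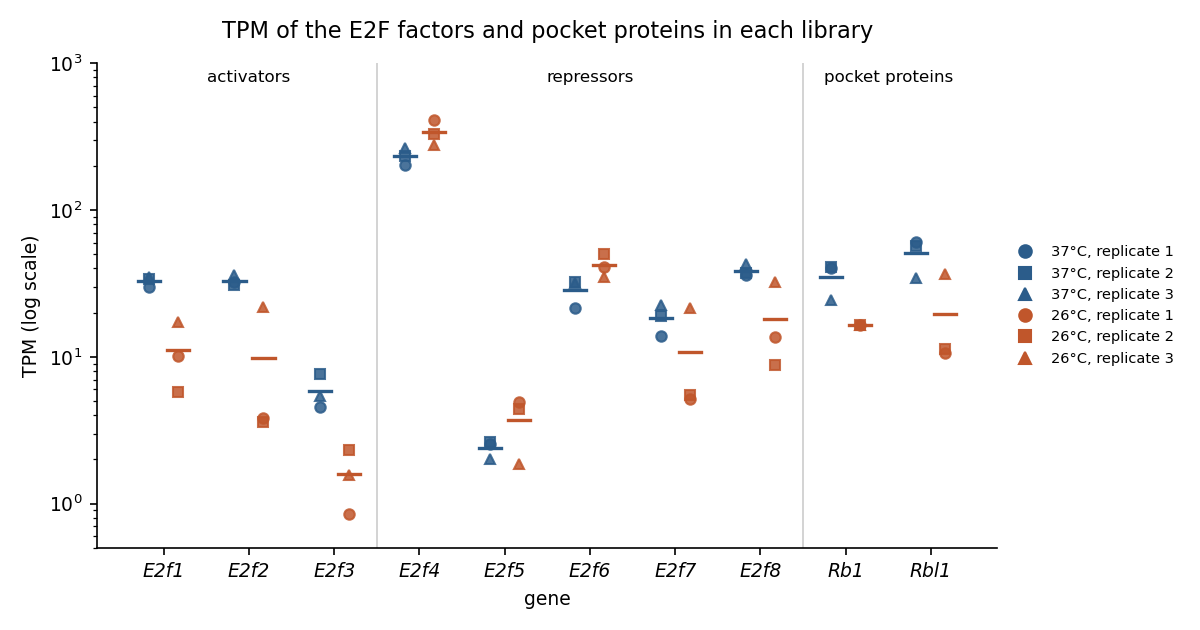
TPM of each gene on a log scale in the 6 libraries, with circles, squares and triangles for replicates 1, 2 and 3 and a bar for the group mean (n = 3). E2f1, E2f2, E2f3, E2f8 and Rb1 lay lower and E2f4 and E2f6 higher at 26°C with no overlap between temperatures, and the triangles of replicate 3 lay nearest each other in most genes.

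E2f1, the activator that also takes part in apoptosis and DNA damage responses, was at 30.0, 33.9 and 35.1 TPM in non-acclimated replicates 1, 2 and 3. After cold acclimation it was at 10.2, 5.74 and 17.3 TPM. The groups did not overlap, and replicate 3 held the highest value at each temperature. Its log2 fold change was -1.61 ± 0.37 (SE, n = 3 per group, limma adjusted p = 0.025), a mean 2.98 times higher at 37°C. Without replicate 3 it was -1.92 (adjusted p = 0.0086), and within replicate 3 the change was -0.98. The gene lies on chromosome 2 (GRCm39, 154401320 to 154411812, minus strand).

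E2f2, an activator studied for its part in T cell proliferation, was at 32.4, 30.7 and 36.2 TPM at 37°C. At 26°C it was at 3.84, 3.60 and 21.9 TPM. In the cold, replicates 1 and 2 lay far below replicate 3, and all 3 lay below the non-acclimated values. The fit gave a log2 fold change of -2.09 ± 0.60 (SE, limma adjusted p = 0.045) over all libraries. Without replicate 3 it was -2.79 (adjusted p = 0.0035), and within replicate 3 the change was -0.70.

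E2f3, an activator with a part in the proliferation of many cell types, was at 4.55, 7.59 and 5.40 TPM at 37°C and at 0.844, 2.34 and 1.57 TPM at 26°C. It was the member whose 3 replicates agreed best, with changes of -1.59, -1.36 and -1.31. The fitted log2 fold change was -1.42 ± 0.34 (SE, limma adjusted p = 0.026), and the TPM + 1 scale understates a change at these low levels: with a pseudocount of 0.1 it was -1.89. The length behind the E2f3 values, read from their step, was 25205 bases, whereas exons of the gene cover 5429 bases in a GENCODE annotation. Multiplied by the length behind the values over the GENCODE length, the E2f3 means became 27.2 at 37°C and 7.36 at 26°C. Reads were not recounted and the library totals not rescaled, so such values are not TPM of another annotation. The level of E2f3 set against other genes depends on the length used, while the ratio of its TPM between libraries does not. Without replicate 3 the log2 fold change was -1.48 (adjusted p = 0.038). A long noncoding RNA gene on the opposite strand, Gm60559, shares 12.1% of the E2f3 exon bases.

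The calls of the activators depended on single libraries. Leaving out any library other than cold-acclimated replicate 3 gave E2f1 an adjusted p of 0.054 to 0.089 and E2f2 0.091 to 0.14. For E2f3, leaving out replicate 1 or 2 of either group gave 0.055 to 0.10. Without cold-acclimated replicate 3 the 3 genes kept their calls, with adjusted p of 0.0050, 0.0025 and 0.033 in the order E2f1, E2f2, E2f3. With median of ratios scaling the values were -1.22 (adjusted p = 0.047) for E2f1, -1.72 (0.071) for E2f2 and -1.12 (0.056) for E2f3.

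E2f4, the most abundant member and the main E2F of resting cells, was at 202, 234 and 266 TPM at 37°C and at 409, 328 and 279 TPM at 26°C. All cold-acclimated values lay above all non-acclimated ones, but replicate 3 moved from 266 to 279 TPM only. The log2 fold change was 0.52 ± 0.24 (SE, 95% interval -0.03 to 1.08, limma adjusted p = 0.15). Relative to the median of all genes it was 0.86, and under median of ratios scaling it was 0.93 (adjusted p = 0.043), under the size of 1 that a call needs. Without replicate 3 it was 0.75 (adjusted p = 0.056).

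E2f6, the repressor that works without pocket proteins, was at 21.5, 32.2 and 31.9 TPM at 37°C and at 40.8, 50.2 and 35.0 TPM at 26°C. These groups did not overlap either, and the change of replicate 3 was again the smallest at 0.13. Its log2 fold change was 0.55 ± 0.26 (SE, 95% interval -0.06 to 1.16, limma adjusted p = 0.17), and 0.95 (adjusted p = 0.048) under median of ratios scaling. Without replicate 3 it was 0.76 (adjusted p = 0.085). E2f5, which pairs with p130 and p107 like E2f4, was at 2.56, 2.63 and 2.01 TPM at 37°C and at 4.96, 4.38 and 1.86 TPM at 26°C. Its groups overlapped, since cold-acclimated replicate 3 had the lowest value of the 6 libraries. The fit gave 0.41 ± 0.35 (SE, 95% interval -0.41 to 1.24, limma adjusted p = 0.44), and 0.66 without replicate 3 (adjusted p = 0.11). E2f5 rested on 126 to 308 recovered reads per library. The protein-coding gene Rbis on the opposite strand shares 43.4% of its exon bases, and Rbis itself gave a log2 fold change of -0.01 ± 0.32 (SE, adjusted p = 0.99). The strand setting of the counting is not given in the sources used here, so reads of such pairs may not be separated.

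E2f7 was at 14.0, 18.9 and 22.5 TPM at 37°C and at 5.15, 5.46 and 21.6 TPM at 26°C. Replicates 1 and 2 changed by -1.28 and -1.62, whereas replicate 3 changed by -0.05, so the groups overlapped. The log2 fold change over all libraries was -0.99 ± 0.52 (SE, 95% interval -2.19 to 0.22, limma adjusted p = 0.21). Without replicate 3 it was -1.45 (adjusted p = 0.012), and under median of ratios scaling -0.61 (adjusted p = 0.39).

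E2f8, the close relative of E2f7 with which it can pair, was at 35.8, 37.2 and 42.9 TPM at 37°C. At 26°C it was at 13.7, 8.75 and 32.1 TPM. The groups did not overlap, and each replicate was lower at 26°C. Its log2 fold change was -1.23 ± 0.43 (SE, limma adjusted p = 0.079), with an adjusted p of 0.027 with the replicate block and 0.0097 without replicate 3. Under median of ratios scaling it was -0.84 (adjusted p = 0.17), or 0.067 with the block added to this scaling. The noncoding gene Gm2788 shares 20.3% of the E2f8 exon bases on the opposite strand, and its log2 fold change was -0.82 (adjusted p = 0.20).

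Rb1, the retinoblastoma gene, was at 40.6, 40.7 and 24.5 TPM at 37°C and at 16.4, 16.5 and 16.6 TPM at 26°C. The cold-acclimated values were nearly equal, and the spread lay in the non-acclimated group, where replicate 3 was lowest. The log2 fold change was -1.01 ± 0.27 (SE, limma adjusted p = 0.036), close to the size a call needs. Without replicate 3 it was -1.25 (adjusted p = 0.0099), and within replicate 3 the change was -0.54. Under median of ratios scaling it was -0.62 (adjusted p = 0.14), and leaving out replicate 1 or 2 of either group gave adjusted p of 0.10 to 0.14.

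Rbl1, which encodes p107 and is itself an E2F target, was at 61.0, 56.7 and 34.2 TPM at 37°C and at 10.6, 11.3 and 36.4 TPM at 26°C. Replicates 1 and 2 were lower by 2.42 and 2.23 on the log2 scale, while replicate 3 was higher by 0.09. The fitted value was -1.52 ± 0.49 (SE, limma adjusted p = 0.062), 0.049 with the replicate block. Without replicate 3 it was -2.32 (adjusted p = 0.0035). Under median of ratios scaling it was -1.12 (adjusted p = 0.12), or 0.105 with the block added to this scaling.

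**Figure D2:**
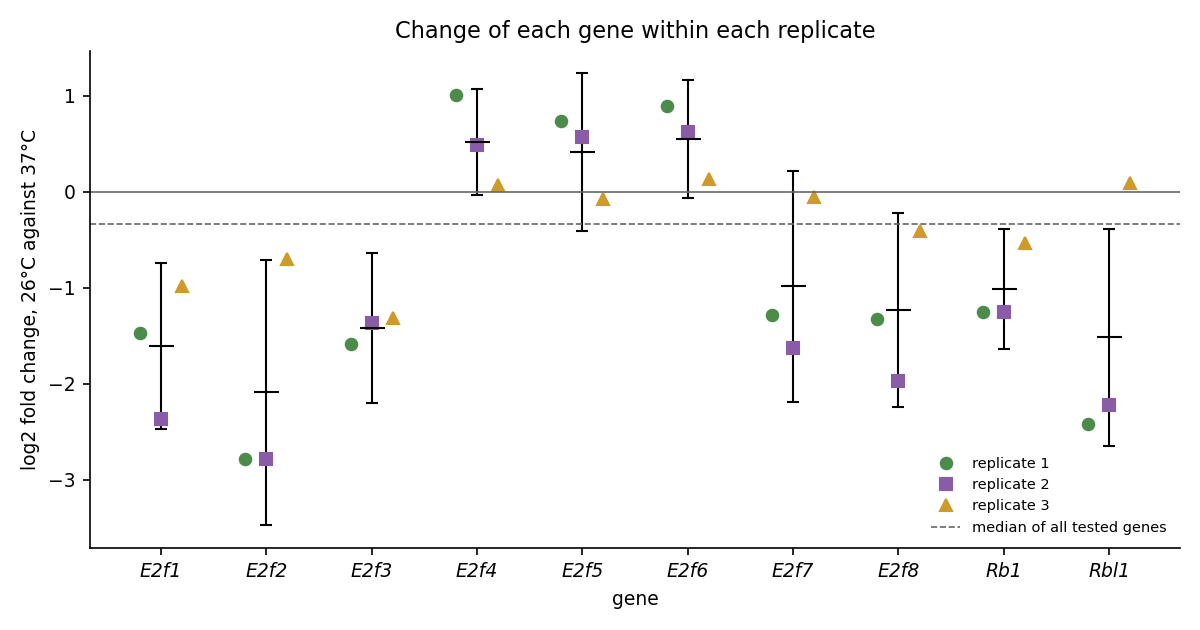
Log2 fold change of each gene at 26°C against 37°C on the log2(TPM + 1) scale within replicates 1, 2 and 3 (symbols), with the limma estimate and its 95% interval (bars) and the median of all tested genes (dashed line, -0.34). Replicate 3 lay nearest 0 in each of the 10 genes, and replicates 1 and 2 lay on the same side of 0 in each.

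Across the family, 5 of 10 genes had lower values at 26°C with no overlap between the groups, beside 31.4% of all tested genes, and 2 had higher values with no overlap, beside 9.69%. Changes were smaller in replicate 3 than in replicates 1 and 2 in all 10 genes. The marker sums of other cell types given above overlapped between temperatures, while Cd4 and Lyz2 were higher in replicate 3 at both temperatures. Their part in the results was not tested. In bulk RNA, fewer cells that express a gene and less RNA per cell cannot be told apart.

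Set against each other within a library, where any scaling factor cancels, the summed TPM of the 3 activators was 0.243, 0.222 and 0.210 of the summed TPM of the 5 repressors at 37°C. At 26°C the ratio was 0.0314, 0.0294 and 0.110. No cold-acclimated value reached the non-acclimated ones. The ratio changed by -2.95, -2.92 and -0.93 on the log2 scale in replicates 1, 2 and 3 (mean -2.26 ± 1.16, SD, n = 3). The sum of the activators went from between 67.0 and 76.7 TPM to 14.9, 11.7 and 40.8 TPM, while the sum of the repressors went from 276, 325 and 365 TPM to 473, 397 and 370 TPM. Without replicate 3 the mean change was -2.93. No p is given, since the genes were grouped with results of these data known.

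E2f4 carried most of the denominator. Its share of the summed TPM of the 8 E2F genes was 58.9%, 59.0% and 60.2% at 37°C and 83.7%, 80.3% and 68.0% at 26°C. The sum of all 8 overlapped between temperatures, at 343 to 442 TPM and 409 to 488 TPM. With E2f4 left out of the repressors the mean change of the ratio was -1.66, and with E2f6 left out -2.24. The levels of both measures depend on the gene lengths. With GENCODE lengths, rescaled as for E2f3 and without a recount of reads, the ratio was 0.688, 0.707 and 0.608 at 37°C. At 26°C it was 0.0951, 0.132 and 0.299, a mean change of -2.10. The share of E2f4 by this rescaling was 35.3%, 34.8% and 37.5% at 37°C and 72.5%, 67.3% and 49.6% at 26°C.

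The choice of repressors set the size of the change. Over E2f4, E2f5 and E2f6 the activators changed by -3.18, -3.14 and -0.99. Over the atypical repressors E2f7 and E2f8 they changed by -0.77, -0.65 and -0.63 (mean -0.68 ± 0.08, SD), with ratios of 1.35, 1.29 and 1.17 at 37°C and of 0.787, 0.822 and 0.759 at 26°C. In this ratio the change of replicate 3 lay close to that of replicate 2. E2f7 and E2f8 together went from 0.220, 0.208 and 0.218 of the sum of E2f4, E2f5 and E2f6 to 0.0416, 0.0371 and 0.170. E2f7 and E2f8 had negative and E2f4, E2f5 and E2f6 positive log2 fold changes under both scalings. None of the 5 was called in the main fit, while E2f8 was called downregulated with the replicate block. The difference between these subsets was not tested. The ratio of Rb1 to Rbl1 was 0.665 to 0.718 at 37°C and 1.55, 1.46 and 0.455 at 26°C, so the groups overlapped.

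**Figure D3:**
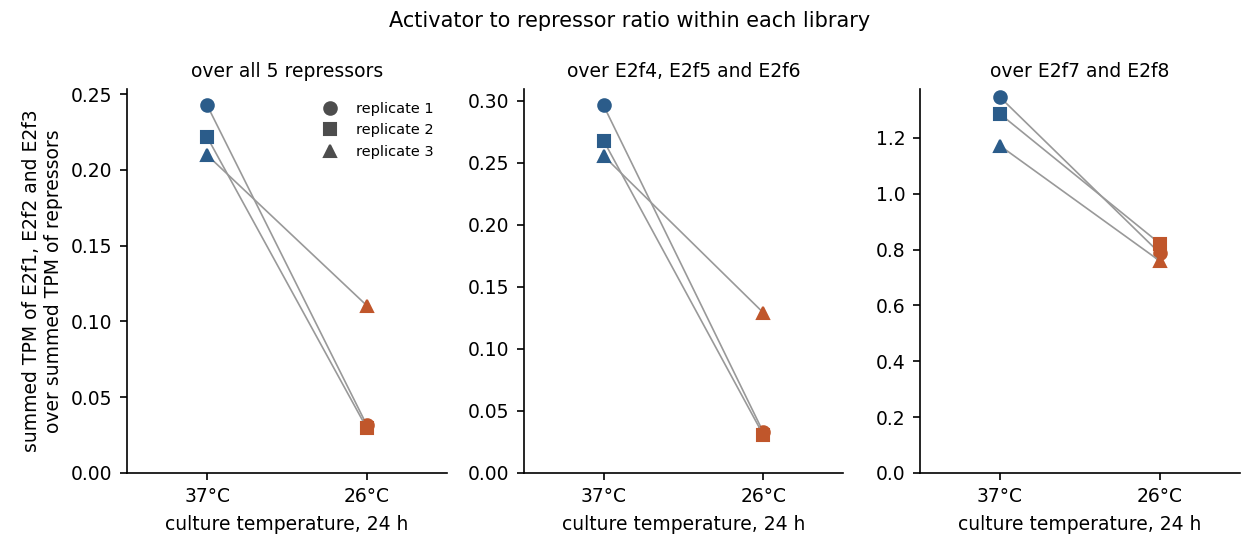
Summed TPM of E2f1, E2f2 and E2f3 over the summed TPM of all 5 repressors (left), of E2f4, E2f5 and E2f6 (middle) and of E2f7 and E2f8 (right) in each library, with lines joining libraries of the same replicate number and linear axes from 0. In replicates 1, 2 and 3 the left ratio went from 0.243, 0.222 and 0.210 to 0.0314, 0.0294 and 0.110, and the right one from 1.35, 1.29 and 1.17 to 0.787, 0.822 and 0.759.

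By mean TPM, a measure per length, the order at 37°C was E2f4, Rbl1, E2f8, Rb1, E2f2, E2f1, E2f6, E2f7, E2f3 and E2f5. E2f4, at 234 ± 32.0 TPM (SD, n = 3), lay above all others, and E2f3 and E2f5 lay below all others, while neighbours from Rbl1 at 50.6 ± 14.4 TPM to E2f7 at 18.4 ± 4.28 TPM overlapped. At 26°C the order was E2f4, E2f6, Rbl1, E2f8, Rb1, E2f1, E2f7, E2f2, E2f5 and E2f3. Here the values separated neighbours only between E2f4 (339 ± 65.3 TPM) and E2f6 (42.0 ± 7.66 TPM), and E2f6 stood seventh at 37°C. These levels depend on the gene lengths. The step gave E2f5 7181 bases against 3990 in GENCODE, E2f4 1993 against 5775 and E2f6 4203 against 11997. With the TPM rescaled to GENCODE lengths, without a recount of reads, E2f4 kept the highest mean at both temperatures (80.8 and 117). By this rescaling E2f6 came to 9.98 and 14.7, and E2f5 had the lowest mean at both (4.32 and 6.72). E2f3 came to 27.2 at 37°C, rank 6 among the members, and to 7.36 at 26°C, rank 8.

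Of the partners of the family, Tfdp1 (DP1, which most E2F proteins need to bind DNA) was at 142, 189 and 228 TPM at 37°C and at 30.0, 36.2 and 81.5 TPM at 26°C. Its log2 fold change was -2.01 ± 0.40 (SE, limma adjusted p = 0.016). Rbl2, which encodes p130, was at 134, 138 and 142 TPM at 37°C and at 55.8, 47.0 and 88.5 TPM at 26°C. Its log2 fold change was -1.15 ± 0.27 (adjusted p = 0.027), a call lost under median of ratios scaling (-0.74, 0.069) and with voom (-0.79, 0.061), whereas Tfdp1 was called in both. Without replicate 3 both genes were called, Tfdp1 at -2.28 (adjusted p = 0.0038) and Rbl2 at -1.39 (0.0074). Tfdp2 was at or near 0 and was not tested.

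The MuvB core joins p130 or p107 and E2f4 in the repressive DREAM complex, and B-Myb and FoxM1 in activating ones. The counts of downregulated genes in this and the next lists stand beside 16.0% of all tested genes in limma and 21.9% with the replicate block. Of its 7 tested genes 1 was downregulated, Lin37 (-1.38, limma adjusted p = 0.011), and Lin54 gave -1.68 (0.067), called with the replicate block (0.024) and without replicate 3 (-2.33, 0.0040). The call of Lin37 was lost under median of ratios scaling (-0.98, 0.029). None of the 7 tested G1 cyclin and kinase genes was called in limma with either scaling or in voom (2 had an unadjusted p under 0.05, both lower), with Ccne2 at -1.43 (adjusted p = 0.056) and Ccnd3 at -0.88 (0.062), and the replicate block called Ccne2 (0.014). Cdk6 of this list had a positive value of 1.00 (0.19), with higher levels at 26°C in all 3 replicates, and was called upregulated with the block and median of ratios scaling together (1.41, 0.014). None of the 5 tested CDK inhibitor genes was called in these fits either (2 had an unadjusted p under 0.05, both lower), with Cdkn2b at -1.52 (0.13) and Cdkn1b at -0.92 (0.11), and the block gave 3 calls. Among 10 partners of E2f6 1 was downregulated, the histone methyltransferase gene Ehmt1 (-1.46, 0.011), with Mga at -0.96 (0.066) and a median 0.08 below that of all genes. Of the 7 genes for turnover of E2F proteins 2 were downregulated, Fzr1 (-1.64, 0.0097) and Ccnf (-1.67, 0.028), the latter at -1.26 (0.052) under median of ratios scaling.

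The next list holds E2F targets of the G1/S transition, many of them genes for DNA replication. Of 40 tested genes 8 were downregulated and 0 upregulated in limma (unadjusted p under 0.05: 23 lower, 0 higher; voom: 4 and 0), beside the 16.0% of all tested genes called downregulated. With median of ratios scaling 4 were called, and without the low-value filter 0. Of the 40, 39 had a negative value, and the median lay 1.23 below that of all genes. Ezh2, the methyltransferase of Polycomb complex 2, changed by -2.91 (limma adjusted p = 0.021). Relative to all genes, the median of the 40 was -1.53, -2.20 and -0.17 within replicates 1, 2 and 3. The replicate block called 27 of them, beside 21.9% of all tested genes, and 33 were called without replicate 3, beside 25.3%. Of the 20 G2/M genes bound through MuvB 5 were downregulated and 0 upregulated in limma (unadjusted p under 0.05: 15 lower, 0 higher; voom: 3 and 0), with Aurkb at -2.14 (adjusted p = 0.027) and Bub1 at -2.30 (0.030), which encode mitotic kinases. Their median relative to all genes was -1.66 and -2.45 in replicates 1 and 2 and 0.28 in replicate 3, 10 were called with the block, and 19 without replicate 3, beside the same shares of all genes. Across the 8 lists together 19 of 98 tested genes were downregulated, beside the 16.0% of all tested genes given above.

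**Figure D4:**
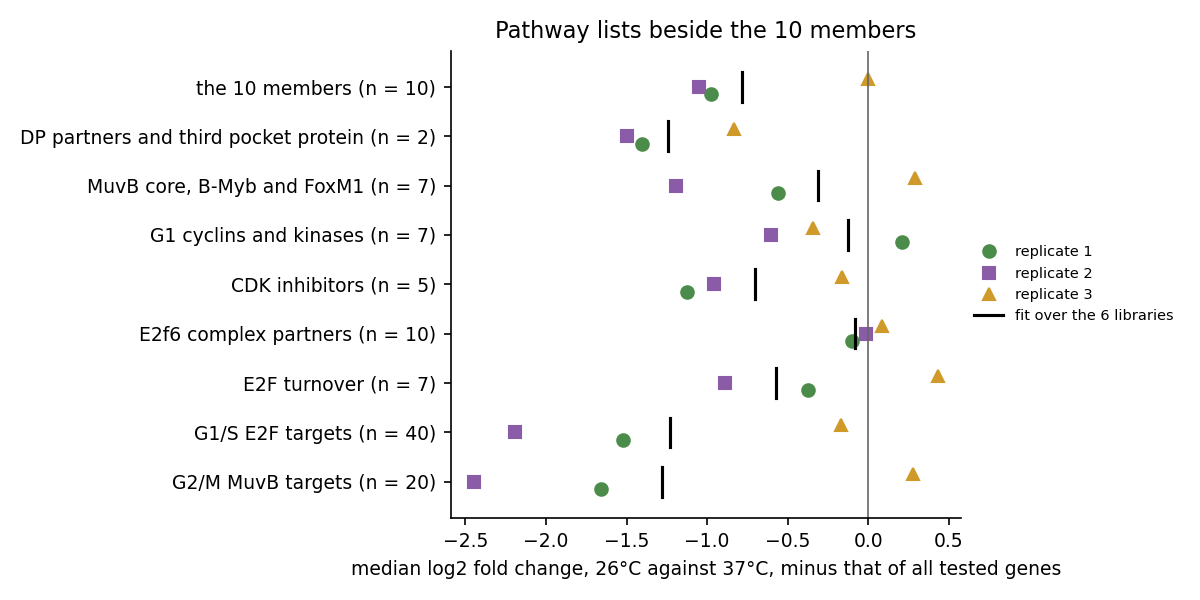
Median log2 fold change of each gene list minus that of all tested genes, within replicates 1, 2 and 3 (symbols) and in the limma fit (bars), with the number of tested genes in brackets. The bars of the G1/S targets (-1.23) and G2/M targets (-1.28) lay below that of the 10 members (-0.79), and the E2f6 partners lay near 0.

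The genes whose log2(TPM + 1) was most like that of E2f1 over the 6 libraries, among 9743 genes with a mean of at least 5 TPM, were Tgds, Carnmt1 and Rars2 (Pearson's r of 0.9997, 0.9989 and 0.9983). For Rb1 they were Katnip, Trim68 and Cfap97, each with r of 0.998. Within the family, E2f1 was most like E2f8 (r = 0.969) and E2f2 (0.953) and least like E2f6 (-0.823). These points share the 2 temperatures and 3 replicate numbers, and the values are a description of 6 libraries.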

How the data were processed

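Poly(A)+ RNA from 3 non-acclimated and 3 cold-acclimated D10 samples was sequenced. Per the submitters' processing notes, FastQC 0.11.7, Trimmomatic 0.38, HISAT2 2.1.0 and featureCounts 1.6.3 were used with GRCm39. The TPM values are as deposited by the authors. For gene lengths, annotation release, strand setting and conversion to TPM, the sources used here give nothing.

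Whole reads were recovered from the smallest step between TPM values, within 1e-06 reads for 100.0% of 21195 genes above 0. Groups were taken from the sample titles. limma 3.58.1 (R 4.3.3) with a mean-variance trend was fitted to log2(TPM + 1) over 12227 genes with a mean of at least 1 TPM, with p-values adjusted over all of them. The procedure was also run on simulated reads with no replicate effect, the same spread setting for all genes, and as many genes raised as lowered. The data differ in these points, so that run does not show how the fit does on them. Python 3.11.15 (numpy 2.4.6, pandas 2.3.3, matplotlib 3.10.9) was used for ratios, motifs and plots.

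Deviations from the group mean correlated at 0.48, 0.50 and 0.51 between libraries of the same replicate number and at -0.41 to 0.02 between others. Deviations within a group cancel out for each gene, so positive values for the same number force lower values between others. From the values for the same number, the numbers are taken to pair the libraries. The main fit was set without a block, so its SEs, intervals, p-values and calls do not use this pairing. The fit with the replicate block does, and it called 6 members downregulated, against 4 in the main fit. Fits with 1 library left out were also without a block.

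The members and lists were chosen with earlier results of these data known. Named genes are the 10 members, the 2 genes per list whose p was smallest in its median's direction, Rbm3, Cirbp, Cd3e, Cd4 and Gata3, and the 3 genes most like E2f1 and Rb1, of which 1 list gene is not reported here. Tfdp2, Gm60559, Gm2788, Rbis, Cdk6, Ms4a1, Csf1r, Lyz2, Cd5, Cd28, Cd3d, Cd3g, Lck and Zap70 were named after their values were seen. Alternatives were a pseudocount of 0.1, no low-value filter, median of ratios scaling, a replicate block, voom on the recovered reads, and each library left out. Leaving out both libraries of replicate 3, other sets of repressors and GENCODE lengths were added after seeing the data.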

Additional observations from a re-analysis of the deposited data

How the results depend on the processing

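No member changed direction in 130 values under 13 alternatives. These are refits of the same libraries, and none rested on replicate 3 alone. Within replicate 3, Rbl1 changed by 0.09 and E2f5 by -0.08, against the direction of their fits, and the other members kept theirs. Of 60 values with 1 library left out, 18 lost and 3 gained a call. Of 70 under the other alternatives, 10 lost and 5 gained one. The replicate block added the calls of E2f8 and Rbl1 and changed no other member call. The causes were not tested. Members called downregulated numbered 4, against 1 with median of ratios scaling, 2 with voom, 0 without the low-value filter, 6 with the replicate block, 3 with the block and median of ratios scaling, 7 without replicate 3 and 0 to 7 with 1 library left out. The excess of downregulated over upregulated genes depended on the scaling, and median of ratios is the normalization named in the study's methods. Over all genes, 321 were upregulated and 1954 downregulated in the main fit, on the TPM scale. These counts were 840 and 1052 with median of ratios scaling, 717 and 1170 with voom, 184 and 1121 without the filter, where 21195 genes were tested, 458 and 2679 with the replicate block, 1129 and 1515 with the block and median of ratios scaling, 653 and 3088 without replicate 3, and 59 to 459 and 345 to 2725 with 1 library left out. In the 8 pathway lists 19 genes were downregulated, against 10 with median of ratios scaling, 12 with voom, 5 without the filter, 48 with the replicate block, 30 with the block and median of ratios scaling, where 1 was also upregulated, 68 without replicate 3 and 0 to 69 with 1 library left out. The activator to repressor ratio changed by -2.26, and by -0.88 over E2f5, E2f7 and E2f8 and -0.68 over E2f7 and E2f8. With 3 libraries per group, an interval such as that of E2f4 includes both no change and a doubling. E2f5, with 126 to 308 reads, is the member that depth limits most.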
